A study of Mus musculus with 2 samples.

Results

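Dense runs of neighbouring accessible sites were examined in the embryonic mouse striatum. A dense run was a maximal stretch of 5 or more consecutive peaks, that is, regions called accessible, in which each gap from the end of a peak to the start of the next was 2000 bp or less. The rule found 234 dense runs, and they held 1362 of the 87174 peaks in the deposited list (1.56%, exact 95% binomial interval 1.48 to 1.65%). Chromatin accessibility was measured by single-nucleus ATAC-seq, in which a transposase tags open DNA and each nucleus receives its own barcode. Nuclei came from the striatum of E14.5 wild-type embryos of mixed C57BL/6J and CD1 background. A single group of 2 libraries was made, with no mutant, treatment or second stage to compare. A single peak list was deposited for both libraries, and each line gave a position in mm10 without a count, score or sample. The members were chosen by position alone: the start and end of every peak entered the rule, so run sizes, gaps and widths below describe the members and carry no test.

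Accessible sites mark promoters, where transcription starts, and enhancers, which bind sequence-specific transcription factors and act on promoters at a distance. Genes that specify cell identity, such as those of homeodomain, SOX, PAX and zinc finger factors, are known for several enhancers and for wide accessible domains around their promoters. In the embryonic striatum, progenitors of the ganglionic eminence express DLX, GSX and MEIS factors, and their daughters become GABAergic projection neurons.

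The runs covered several microRNA genes known from neurons and from axial patterning. The mature sequences that identify them are shown because 2 separate runs encode the same microRNA. The seed, bases 2 to 8 of a mature microRNA and the part that pairs first with target RNAs, is in capitals. All are RefSeq sequences of GRCm38.p6, the assembly that mm10 names. The miR-9-5p sequence lies at chr3:88215613-88215635 on the plus strand in Mir9-1 and at chr7:79505279-79505301 on the plus strand in Mir9-3. The miR-9b sequences come from the minus strand of the same hairpins, and miR-196b-5p lies at chr6:52230129-52230150 on the minus strand, within the Hoxa cluster.
mmu-miR-9-5p: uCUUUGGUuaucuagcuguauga
mmu-miR-9-3p: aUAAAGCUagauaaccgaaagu
mmu-miR-9b-5p: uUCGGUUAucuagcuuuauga
mmu-miR-9b-3p: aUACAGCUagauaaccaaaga
mmu-miR-196b-5p: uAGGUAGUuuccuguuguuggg

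Promoter windows of 300 bases, from 250 before to 50 after a RefSeq gene start, are shown for 4 transcription factor genes whose starts lay under a member peak. Six3, a homeobox factor of forebrain and D2-type striatal neuron development, starts under a peak of 12055 bp, and its window is chr17:85620584-85620883, plus strand. Sox2, a factor of neural progenitors, starts under a peak of 3916 bp (window chr3:34649745-34650044, plus strand). Pou3f3, a POU factor of neural progenitors, starts under a peak of 16887 bp (window chr1:42695518-42695817, plus strand). Uncx, a homeobox factor known from the somites and the midbrain, starts under a peak of 1624 bp (window chr5:139543648-139543947, plus strand), and was chosen because its window held both motifs searched. Capitals mark TAATTA, a core bound by many homeodomain factors including DLX proteins, and TGACAG or its reverse complement CTGTCA, a core bound by MEIS and TGIF factors. TAATTA is its own reverse complement, and no base can belong to both motifs. All 4 windows shown hold TGACAG or CTGTCA and so are not typical. Of the 207 windows that overlapped a member peak, 24 held it (11.6%).
Six3: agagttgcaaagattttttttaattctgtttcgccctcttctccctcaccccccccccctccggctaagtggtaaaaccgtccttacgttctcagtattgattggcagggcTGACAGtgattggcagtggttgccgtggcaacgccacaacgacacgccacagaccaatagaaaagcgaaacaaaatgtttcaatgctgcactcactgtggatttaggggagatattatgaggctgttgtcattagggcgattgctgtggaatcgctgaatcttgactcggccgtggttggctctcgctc
Sox2: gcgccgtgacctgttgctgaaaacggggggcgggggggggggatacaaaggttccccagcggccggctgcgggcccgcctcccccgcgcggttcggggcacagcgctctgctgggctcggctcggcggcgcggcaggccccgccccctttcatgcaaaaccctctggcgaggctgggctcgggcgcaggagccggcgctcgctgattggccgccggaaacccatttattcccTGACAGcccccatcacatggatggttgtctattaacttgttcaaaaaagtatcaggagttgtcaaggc
Pou3f3: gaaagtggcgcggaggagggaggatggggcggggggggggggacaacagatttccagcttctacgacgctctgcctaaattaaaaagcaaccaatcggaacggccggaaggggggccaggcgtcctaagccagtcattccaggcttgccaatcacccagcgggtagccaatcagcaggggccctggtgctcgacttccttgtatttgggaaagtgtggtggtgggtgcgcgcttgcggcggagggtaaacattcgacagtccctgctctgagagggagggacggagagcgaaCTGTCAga
Uncx: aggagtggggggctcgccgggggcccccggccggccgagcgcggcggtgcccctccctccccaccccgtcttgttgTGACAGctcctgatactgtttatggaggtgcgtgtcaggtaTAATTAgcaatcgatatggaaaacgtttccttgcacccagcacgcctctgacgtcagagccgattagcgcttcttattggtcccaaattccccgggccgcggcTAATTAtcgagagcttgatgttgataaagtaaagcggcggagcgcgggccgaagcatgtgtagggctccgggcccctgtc

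Both motifs were found in a smaller share of the windows under members than of promoter windows in general. Of 207 windows that overlapped a member peak, 5 held TAATTA (2.42%) and 24 held TGACAG on either strand (11.6%). The shares were 2.92% and 16.4% in the 16692 windows over another peak, and 5.29% and 19.2% in all 32851 windows. No interval was taken for these shares, and the TAATTA share under members rests on only 5 windows. Base composition differed between these classes: the median GC content was 61.0% in windows under members and 61.0% in windows under other peaks, against 46.7% in the 15952 windows under no peak. The median number of CpG dinucleotides per window was 18 under members, 20 under other peaks and 3 under no peak. Windows under members thus had the composition of open promoters in general, and a motif match is a run of letters, not a bound site.

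Most dense runs were short. Of the 234 runs, 135 held exactly 5 peaks, 53 held 6, 28 held 7, and 18 held 8 or more, up to 15 in the Hoxa cluster. Below the rule there were 63421 peaks with no neighbour within 2000 bp, 7920 pairs, 1613 triplets and 428 chains of 4, and runs of each larger size were rarer up to 11 peaks. The chains of 4 lie just outside the rule and hold 1712 peaks. The median span was 9967 bp for runs of 5, against 7852.5 bp for chains of 4. At the gap limit, 10 runs had an inner gap of 1975 to 2000 bp, while 2 runs ended at a gap of 2001 to 2025 bp. The run over Pou3f3 contains a gap of exactly 2000 bp.

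**Figure D1:**
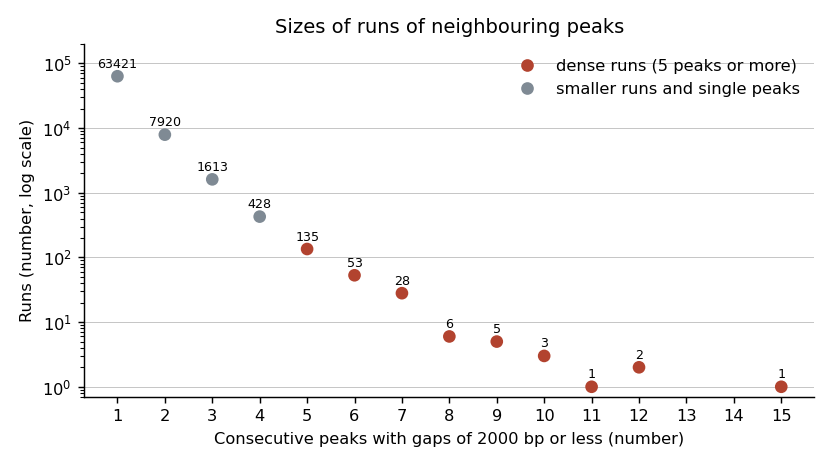
Number of runs (vertical axis, log scale) by the number of consecutive peaks with gaps of 2000 bp or less (horizontal axis), over all 87174 peaks. Red points are dense runs, from 135 runs of 5 peaks to 1 run of 15, and grey points are the smaller chains and the 63421 single peaks.

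Dense runs spanned a median of 11607.5 bp (quartiles 9167.75 and 16025.8 bp, range 5277 to 49173 bp). Within a run, peaks filled a median of 57.7% of the span, and in 166 of 234 runs they filled more than the gaps did. The fill ran from 14.1% in a run of 6 narrow peaks over Plekha5, which encodes a pleckstrin homology domain protein, to 89.1% at Pou3f3. The widest peak of a run held a median of 43.6% of its accessible bases (range 19.5 to 85.8%). In 76 runs the widest peak held over 50%.

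**Figure D2:**
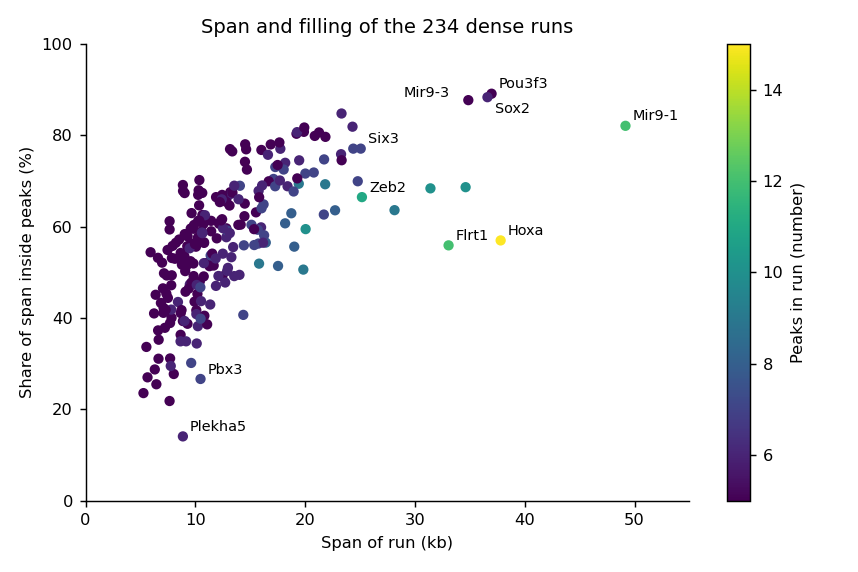
Share of each run's span inside peaks (vertical axis, %) against its span (horizontal axis, kb) for the 234 dense runs, coloured by number of peaks. Mir9-1 is the longest at 49173 bp, Pou3f3, Sox2 and Mir9-3 are long and between 87.7% and 89.1% filled with only 5 or 6 peaks, and Plekha5 is the emptiest at 14.1%.

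Member peaks had a larger median width than peaks outside runs. The median was 782.5 bp wide (quartiles 370 and 1858.75 bp, n = 1362), against 563 bp (quartiles 363 and 1126 bp, n = 85812) for peaks outside runs. The median was wider for members on 19 of 19 autosomes. Median width also rose below the rule, from 551 bp for single peaks to 581 bp in pairs, 668 bp in triplets and 719 bp in chains of 4. It was 768 bp in runs of 5, 741 bp in runs of 6 and 871 bp in runs of 7 or more. Runs of 5 and 6 thus lay close to chains of 4, so the greater width is not particular to dense runs. Of the members, 74 (5.43%, interval 4.29 to 6.77%) belonged to the broadest 1% of all peaks, those over 4479 bp, against 0.930% of other peaks (interval 0.867 to 0.996%). Both ends of the width range were filled: 29 members (2.13%, interval 1.43 to 3.04%) were narrower than 20 bp, against 1.60% of other peaks (interval 1.52 to 1.69%). The runs over Lfng and Pax7 contained peaks of 1 bp and 2 bp. The lower quartiles of members and other peaks lay close together, and the upper quartiles apart. Gaps inside runs had a median of 973.5 bp (n = 1128), against 1085 bp for the 12430 other gaps of 2000 bp or less. No gap anywhere in the list was under 501 bp. Because width takes part in where gaps fall, these differences describe the members and do not stand apart from the rule.

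**Figure D3:**
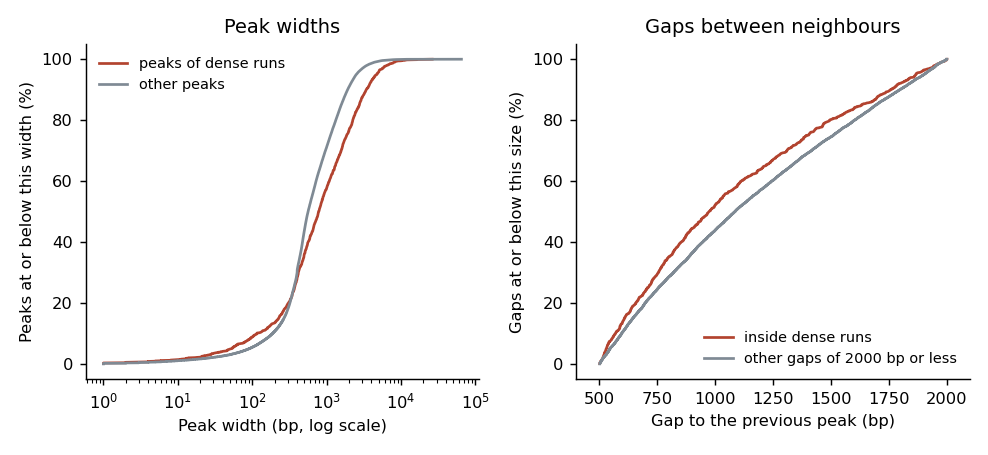
Cumulative share (vertical axes, %) of peak widths on a log scale (left, bp) and of gaps to the previous peak (right, bp), for peaks or gaps inside dense runs in red and for other peaks or other gaps of 2000 bp or less in grey. The width curves start together and part above their lower quartiles of 370 and 363 bp, and gaps inside runs reach 50% at 973.5 bp, against 1085 bp outside.

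Peaks of dense runs lay over genes more often than other peaks did. A protein-coding gene span was overlapped by 72.5% of member peaks (interval 70.1 to 74.9%) and by 59.6% of other peaks (interval 59.3 to 59.9%). Neither a coding nor any other annotated gene was overlapped by 17.6% of members, against 31.3% of other peaks. Counted by run, 203 of 234 (86.8%) touched a protein-coding gene, 17 touched only other gene types and 14 touched no gene. Below the rule, 58.0% of single peaks, 66.8% of pairs, 75.9% of triplets and 80.8% of chains of 4 touched a protein-coding gene. For runs of 5 the share was 81.5%, close to that of chains of 4, so it is not particular to dense runs. Chains of more peaks also had longer median spans. A total of 88 runs lay wholly inside a protein-coding gene, 42 touched 2 or more such genes and 8 touched 3 or more. No peak lay near either end of any gene in 80 of the runs.

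At gene ends the picture was less clear. A gene-end peak overlaps the 1000 bp around the first or last base of an annotated gene. Gene-end peaks made up 26.0% of members (354 of 1362, interval 23.7 to 28.4%) and 23.4% of other peaks (interval 23.1 to 23.7%), with the members' share higher on 14 of 19 autosomes. When only the midpoint of the peak was placed, the order turned round, to 18% of members and 20.3% of other peaks. Around listed gene starts alone, the members' share was 13.6% (179 of 1321), against 16.6% of other peaks. Gene-end members had a median width of 1731 bp, against 627 bp for the remaining members, and other peaks had medians of 1403 bp at gene ends and 488 bp elsewhere.

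Of 32851 listed RefSeq gene starts, 232 lay inside a dense run (0.706%). At the starts of single genes, more peaks of the runs lay downstream of the start than upstream. Downstream peaks were not always inside the gene: at Uncx 7 lay downstream, while 2 member peaks overlapped the gene. In 80 runs exactly 1 protein-coding gene had a listed start, and their 468 peaks divided into 264 downstream of the start, 75 over it and 129 upstream. More peaks lay downstream in 53 runs, more upstream in 20, and the numbers were equal in 7. The widest peak covered the start in 49 of these 80 runs (61.3%). A further 52 runs lay inside a gene without its start. With each gene cut into 5 equal parts from its 5′ to its 3′ end, their midpoints numbered 9, 6, 11, 10 and 16, so they were found along the whole gene with the most in its last part.

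The largest run by peak number lay in the Hoxa cluster, whose homeobox genes pattern the body axis behind the forebrain. It held 15 peaks over 37805 bp (chr6:52200227-52238032) and covered Hoxa3, Hoxa5, Hoxa6, Hoxa7, Hoxa9 and Hoxa10, with the microRNA gene Mir196b between Hoxa9 and Hoxa10. In order of position the peaks were 417, 2228, 952, 1543, 2742, 70, 6720, 603, 595, 499, 2125, 1131, 1214, 345 and 364 bp wide. Of these, 11 lay at gene ends, and the 2125 bp peak covered Mir196b. None was as wide as the widest peak at Sox2 or at Six3. A second run, of 5 peaks, covered Hoxa13 in the same cluster.

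The longest run, 49173 bp over 12 peaks (chr3:88197265-88246438), surrounded Mir9-1, a gene for miR-9, which is known to promote neurogenesis in the forebrain. It also covered the lncRNA genes Gm3764 and AW047730 and part of Rhbg, an ammonium transporter gene. The peaks were 1650, 2244, 8391, 609, 4791, 222, 4065, 1569, 6453, 4863, 4487 and 1020 bp wide, and together they filled 82.1% of the span. The Mir9-1 hairpin shown above lay under the 4791 bp peak. Here 6 of the peaks were wider than 4000 bp, in contrast to the Hoxa run, where 1 was.

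A second copy of the same mature miR-9-5p lay in another dense run. At Mir9-3 (chr7:79493648-79528509) 5 peaks filled 87.7% of 34861 bp, with widths of 870, 26231, 427, 2659 and 388 bp. The 26231 bp peak, the widest member peak of all, covered Mir9-3 and an end of its host lncRNA gene Mir9-3hg. Mir9-2, the remaining miR-9 gene, lay in a chain of 4 under a peak of 5413 bp and so just outside the rule. Of the 3 genes of miR-124, a microRNA abundant in neurons, Mir124a-1 lay in a run of 5 under a peak of 11490 bp. Mir124a-2 lay in a chain of 2 under a peak of 6264 bp, and Mir124a-3 under a single peak of 10874 bp. All 6 genes thus lay under a peak of more than 4000 bp, and 3 of the 6 in a dense run.

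In all, 18 microRNA genes lay within 13 dense runs, 1.47% of the 1228 annotated, and 16 of the 18 lay under a member peak itself. Several lie inside other genes under runs, such as Mir3080 in the run of 8 over Tcf20, a transcriptional coregulator gene, and Mir1897 in the run over Sox2. RefSeq hairpin sequences were found for 15 of the 18. Among the mature sequences found, seeds recurred only between Mir9-1 and Mir9-3 and between the miR-9b entries on their opposite strands.

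Few peaks but wide ones made the fullest runs. At Pou3f3 (chr1:42678133-42715112) the 5 peaks were 2829, 16887, 911, 10112 and 2214 bp wide and filled 89.1% of 36979 bp. At Sox2 (chr3:34635152-34671756) the 6 peaks were 202, 8335, 1837, 3916, 16381 and 1669 bp wide and filled 88.4% of 36604 bp. At Glp1r, the receptor gene for glucagon-like peptide 1, 6 peaks filled 84.8% of 23314 bp, the widest being 8796 bp. These 3 runs would not stand out by number of peaks, since each held 5 or 6.

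Six3, a gene named in the title of the study beside Dlx1, Dlx2 and Meis2, lay in a run of 7 peaks (chr17:85606387-85631450). The widths were 513, 1988, 21, 12055, 2249, 1535 and 960 bp, and the peaks filled 77.1% of 25063 bp. The 12055 bp peak covered the start of Six3, and the gene span lay wholly inside the run. None of the other genes in that title had a member peak. Dlx1 and Dlx2, paired homeobox genes of ganglionic eminence progenitors, lay together under a single peak of 25417 bp with no neighbour within 2000 bp. Meis2, a TALE homeobox gene of striatal neurons, had 32 peaks over its span of 206274 bp, with a median gap of 4386 bp between them, and its longest chain was 4. The neighbouring pair Dlx5 and Dlx6 lay under 1 peak of 25330 bp in a chain of 4. A very broad peak counts as 1 peak, so the rule passes over regions where accessibility was called as a single domain.

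**Figure D4:**
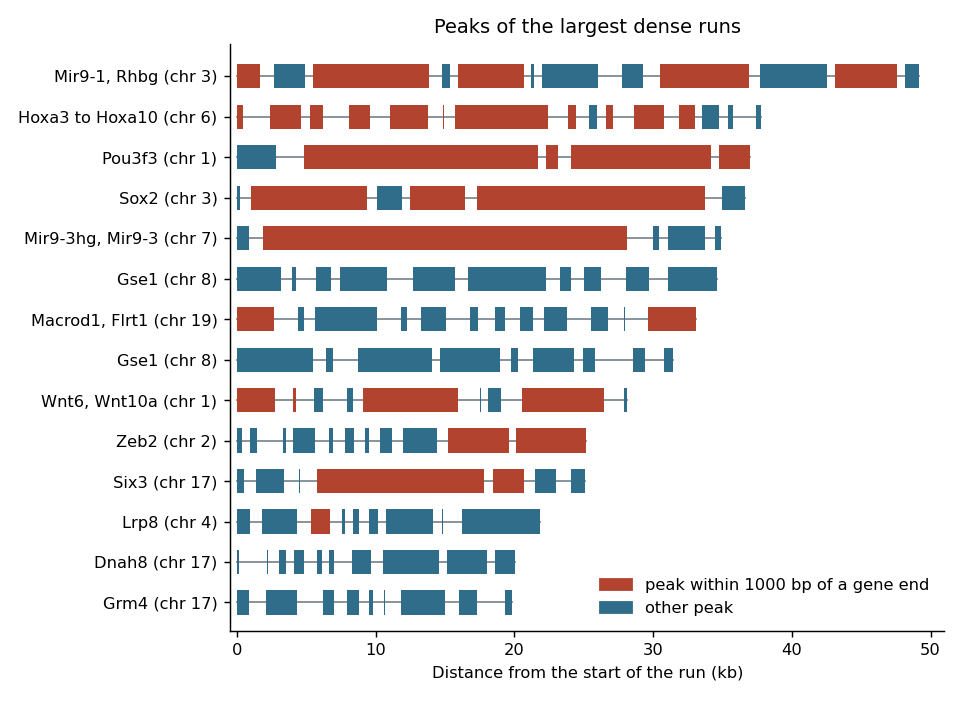
Peaks of 14 large dense runs, to scale, by distance from the start of the run in kb (horizontal axis). Red boxes are peaks within 1000 bp of either end of a gene and blue boxes are other peaks. Sox2, Pou3f3 and Mir9-3 are made of few wide boxes, Hoxa of 15 mostly narrow boxes of which 11 are red, and both Gse1 runs, Dnah8 and Grm4 hold no red box.

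Of 21774 protein-coding genes, 241 lay under a dense run (1.11%). Of these, 228 had 1 run, 11 had 2, Dnah8 had 3 and Gse1 had 5. The share was 0.783% for lncRNA genes (99 of 12637) and 0.0285% for pseudogenes (3 of 10509). By gene length, the share was 1.11% under 10 kb, 0.701% from 10 to 50 kb, 1.60% from 50 to 200 kb and 2.83% at 200 kb or more. It was thus highest in the longest genes but not lowest in the shortest. The median length was 26599 bp for genes under a run, 24587 bp for other genes with a peak and 17182 bp for all other genes.

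Gse1, which encodes a subunit of histone deacetylase and demethylase complexes, had the most member peaks. Its 5 runs on chromosome 8 held 10, 5, 5, 7 and 10 peaks in order of position. They took in 37 of the 84 peaks over the gene and 33.8% of its 352883 bp. The widest member was 7920 bp, and in both runs of 10 no peak lay at a gene end. Dnah8, an axonemal dynein gene, followed with 22 of 65 peaks in runs of 10, 6 and 6. With the run over Glp1r, these formed the largest group of runs, 4 runs and 28 peaks within 186733 bp of chromosome 17. That group held 28 of the 113 members on the chromosome.

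Further genes with many member peaks had varied known roles. Macrod1, an ADP-ribose hydrolase gene, and Flrt1, an adhesion gene nested in it, shared a run of 12 peaks on chromosome 19, with the widest peak at 4429 bp. Grm4, a metabotropic glutamate receptor gene, had 14 of its 22 peaks in 2 runs. Pmepa1, an inhibitor of TGF-beta signalling, had 13 of its 15 peaks in 2 runs, which covered 62.4% of the gene. Foxp4, a forkhead gene, had 12 of 15 peaks in runs of 8 and 7, which covered 61.8% of it. Most peaks over Pmepa1 and Foxp4 thus belonged to runs, whereas Prdm16, a zinc finger regulator of progenitors, had only 12 of 61 peaks in runs. Lrp8, a reelin receptor gene, had 9 of its 17 peaks in 1 run. Among genes of at most 50 kb, Espn, an actin-bundling gene, had 8 member peaks, Hdac5, a histone deacetylase gene, had 7, and Trim17, a ubiquitin ligase gene, Gpc1, a glypican gene, and Smad7, an inhibitor of TGF-beta signalling, had 6 each.

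Of 20 transcription factor genes of striatal projection neurons, 5 lay under runs (25%), against 1.11% of all protein-coding genes. This share is not particular to striatal genes. It was 2 of 8 for caudal ganglionic eminence genes, 5 of 18 for radial glia genes and 3 of 16 for cortical excitatory genes. The striatal list also had long genes, with a median of 95369 bp, and the share of all protein-coding genes from 50 to 200 kb was 1.60%. Bcl11b, required for projection neuron maturation, had 2 runs of 5, with peaks of 161, 5897, 1698, 1080 and 181 bp in the first and 216, 202, 3020, 986 and 8733 bp in the second. The 8733 bp peak covered the start of the gene. Pbx3 had 1 run of 7 narrow peaks between 80 and 996 bp, inside the gene and only 26.7% filled. Meis1, a TALE homeobox gene, had a run of 5 peaks of 836, 523, 510, 3214 and 3459 bp, and Six3 had the run of 7 described above. The 15 genes with no run all had peaks, and 6 of them reached a chain of 4, among them Ebf1, Isl1 and Bcl11a. Foxp1, with 59 peaks over 597405 bp, did not exceed a chain of 3.

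Among 18 genes of radial glia and neural progenitors, 5 lay under a run: Sox2, Sox9, Nfia, Nfix and Notch2. Nfix, a nuclear factor I gene, shared a run of 6 peaks with Lyl1 and Trmt1. The widths were 438, 694, 4780, 3419, 3757 and 1414 bp, and the last 4 peaks overlapped Nfix. Notch2, a Notch receptor gene, had 5 of 137, 161, 840, 28 and 1753 bp. Peaks filled 74.5% of the run over Nfix, Lyl1 and Trmt1 and 41.1% of the run inside Notch2. Vim, Fabp7 and Hes5, also of this list, had a single isolated peak each. Of 15 regulators of ganglionic eminence progenitors, Gsx2 alone lay under a run, whose peaks were 3313, 3274, 14, 1003 and 4697 bp wide and of which the 3274 bp peak overlapped the gene, while Gli3, Sall3, Otx2, Dlx5 and Dlx6 reached a chain of 4.

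Genes of other forebrain lineages appeared as well. Zeb2, a zinc finger factor of migrating interneurons, had the fourth largest run by peak number, 11 peaks over 25173 bp (chr2:45092577-45117750). In order of position, and so toward the 5′ end of this minus-strand gene, the widths were 365, 482, 226, 1615, 306, 667, 284, 813, 2504, 4440 and 5032 bp. The widest peak, of 5032 bp, was the last and covered the gene's start, and the other 10 lay downstream of it, inside the gene. Zeb2 was the only gene under a run among 15 interneuron and medial ganglionic eminence genes. Npas1 and Nr2f2 were under a run among 8 caudal ganglionic eminence genes, and Cux2 and Neurod2, from the list of cortical excitatory neuron genes, were under runs of 5 and 6 peaks. Ppp1r1b, the gene for DARPP-32, was the only one of 18 mature striatal neuron genes, with 1 of its 4 peaks at the edge of a run of 6 that also covered Gm33099 and Gm38970. That run lay beside the run of 6 over Neurod2, and both together spanned 32299 bp of chromosome 11.

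None of 15 pan-neuronal genes lay under a run (up to 20% allowed), a count that is near the 1.11% of all protein-coding genes in so short a list. They had a median of 15 peaks over their spans. Rbfox3 had 47 peaks and a longest chain of 4, and Rbfox1 had 47 peaks and a longest chain of 2. Their peaks lay spread out over a median gene length of 267382 bp.

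Hox genes had the highest share of the lists: 12 of 39. They were Hoxa3, Hoxa5, Hoxa6, Hoxa7, Hoxa9, Hoxa10 and Hoxa13, Hoxb3, Hoxb5 and Hoxb6, Hoxc9, and Hoxd3. All 39 had a peak, and 17 reached a chain of 4 or more. These genes are neighbours, so the 12 genes stand for 6 runs and not for 12. Hoxb5 and Hoxb6 shared a run of 7 peaks of 401, 1654, 288, 921, 831, 3337 and 190 bp.

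Among pathway genes, the counts were smaller. In the Notch pathway 3 of 23 genes lay under a run: the ligand gene Dll3, the glycosyltransferase gene Lfng, which modifies Notch receptors, and the receptor gene Notch2. All 5 peaks over Dll3 were members. In the Wnt pathway there were 2 of 28, the effector Tcf7l2 with 12 member peaks in 2 runs and the feedback inhibitor Axin2 with 6. None of 13 Hedgehog pathway genes was under a run (up to 23.1% allowed), which is near the background of 1.11%, and Gli3, Boc and Shh reached a chain of 4. Of 37 Eph, ephrin, Slit, Robo and netrin genes, Epha4 had 12 member peaks in 2 runs and Unc5b had 5. Of 31 semaphorins, plexins and neuropilins, Sema5b and Sema3b lay under a run. Of 47 chromatin modifier genes 6 did: Gse1, Hdac5, Hdac7, the DNA methyltransferase gene Dnmt3a, the DNA demethylase gene Tet3, and Arid1b, a subunit of BAF remodelling complexes.

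For lists of other cell types, the count was 0 of 12 microglia genes, 0 of 14 endothelial and mural genes, 0 of 10 oligodendrocyte genes, 0 of 10 erythroid genes and 0 of 14 liver genes. With lists this short, a count of 0 allows shares of up to 21.4 to 30.0% and is near the background of 1.11%, so it says nothing particular about these cell types. The members under a run in the skeletal muscle list were Pax3 and Pax7, 2 of 14. Both also pattern the dorsal neural tube, and no gene of the contractile apparatus in that list lay under a run. A peak of any kind lay over 14 of 14 endothelial and mural genes, 9 of 10 oligodendrocyte genes, 11 of 14 skeletal muscle genes, 8 of 12 microglia genes, 7 of 14 liver genes and 3 of 10 erythroid genes, and over 20 of 20 striatal transcription factors. None of 1109 olfactory receptor genes was under a run (up to 0.271% allowed), against 1.11% of all protein-coding genes. Only 9 of these receptor genes had a peak of any kind, and the median length in their list was 951 bp. None of 57 clustered protocadherins was under a run, which allows up to 5.26% and is near the background. The protocadherin genes had a median of 8 peaks but chains of at most 3.

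**Figure D5:**
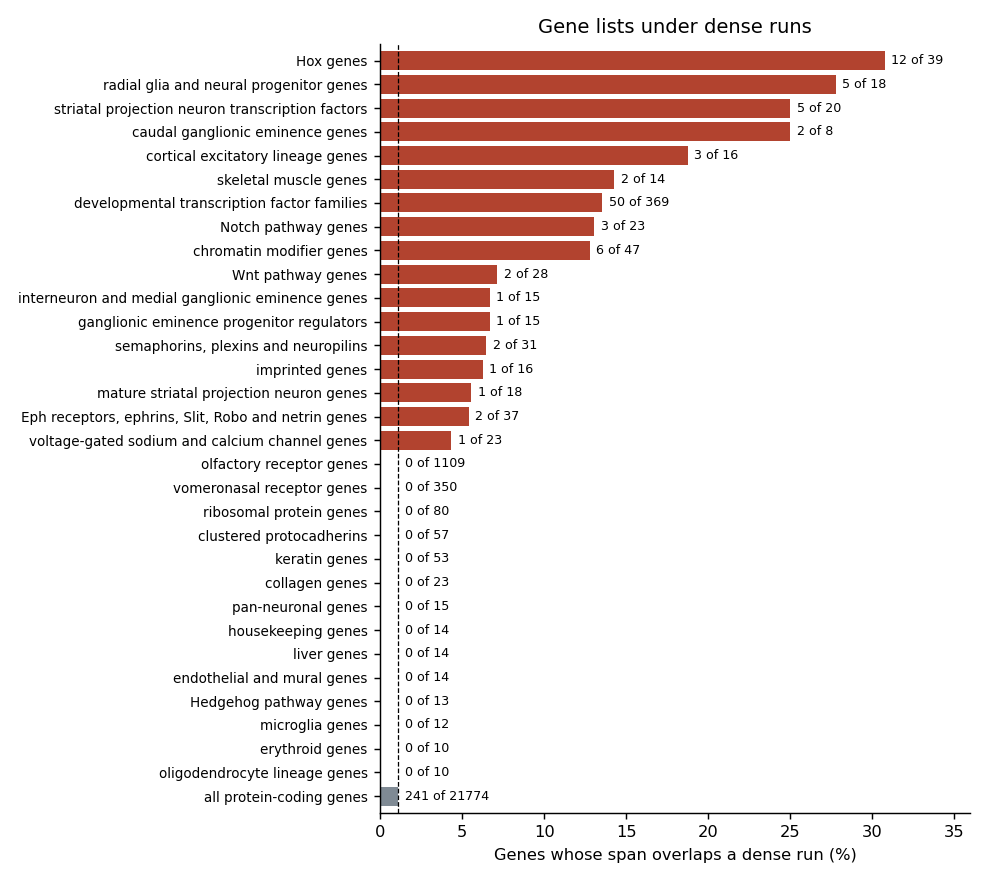
Share of the genes of each list whose span overlaps a dense run (horizontal axis, %), with the count beside each bar. The dashed line and the grey bar are the share of all protein-coding genes, 241 of 21774 (1.11%), and the lists of Hox genes, radial glia genes and striatal transcription factors stand at 12 of 39, 5 of 18 and 5 of 20.

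A wider set of developmental transcription factor families, put together after the genes under runs had been seen, had 50 of its 369 genes under a run (13.6%). Since the set was drawn up from these results, that share and the contrast of runs that follows support nothing and serve as a description. The 49 runs over such genes were longer and fuller. They had a median span of 15364 bp, against 10790 bp for the 185 other runs, and peaks filled 64.7% of the span, against 55.9%. They held 7 or more peaks in 36.7% of cases, against 15.1%. Several of these genes act mainly outside the embryonic striatum, for example Gata3, a blood and ear factor, and Foxf1, a mesoderm factor. Each had a run of 5 peaks, with fills of 80.8% at Gata3 and 65.4% at Foxf1. These examples, and Uncx above, were chosen after their values had been seen. Ribosomal protein genes, also added later, had none of 80 under a run, which allows up to 3.75% and is near the background, and their longest chain had a median of 1.

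Runs were unevenly spread over the chromosomes. Members made up 3.14% of the peaks on chromosome 17, 2.87% on chromosome 19 and 2.14% on chromosome 11, against 0.855% on chromosome 13. The X chromosome had a single run, 5 peaks over Mid1, a ubiquitin ligase gene (chrX:169979036-169987917), and its members were 0.312% of 1605 peaks. No run lay on the Y chromosome, where a count of 0 among 16 peaks allows up to 18.8%. Of the 234 runs, 54 lay within 100 kb of another, in 25 groups of which 3 held 3 or more runs. After the group at Dnah8 and Glp1r, these were 3 of the Gse1 runs and a group on chromosome 9. That group covers Cacna2d2, a calcium channel subunit gene, Sema3b, a semaphorin gene, and Gnai2, a G protein gene, with 15 peaks within 110839 bp.

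Reads per peak, per library and per nucleus were not part of the list. Whether both libraries contributed to a run, and whether the peaks of a run were open in the same nuclei, was not tested. Depth is unknown, the labels do not tie the libraries to separate embryos, and intervals cover the counting of peaks only, since peaks of 1 list are not replicates.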

How the data were processed

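Single-nucleus ATAC-seq was performed on 2 libraries of E14.5 wild-type mouse striatum, which form 1 group. The authors deposited 1 peak list for both, with the position of each of 87174 peaks in mm10 and no other score. Per the submitters' processing notes, Cell Ranger ATAC 1.2.0, Signac and mm10 were used. The peak caller, and any pooling of libraries before calling, are not given in the sources used here. Whether starts count from 0 or 1 is not stated, so positions are as deposited and may be off by 1.

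Peaks were sorted by chromosome and start, and gaps were taken as next start minus previous end. Runs of at least 5 peaks with gaps of at most 2000 bp were kept, with no filter on width. The run finder was tested on simulated data. Gene spans came from a RefSeq table of GRCm38.p6. Of 49997 entries 402, mainly scaffold entries, were left out, and 49595 genes were used, 21774 of them protein-coding. A gene was under a run when their spans overlapped by 1 bp or more. Gene starts, promoter windows and microRNAs came from RefSeq sequence tables with 32851 starts of 27025 genes. Starts on chromosome 18, which has 7 runs, were not analysed here, so counts of starts cover 227 runs. Exact binomial intervals (Clopper-Pearson) of 95% were given, and a count of 0 allows 3 of the total.

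The members and the gene lists were chosen with earlier results of these data known. Some genes, such as Notch2, stand in more than 1 list. Developmental factor families and ribosomal genes were added after values had been seen. Genes named are those in the study's title, those under the runs with most peaks, longest span or highest fill, those with most member peaks or runs, up to 3 of each list with most member peaks, and the longest run of each chromosome. Further list members are named where a count of 5 or fewer is given or to show the longest chains of 3 or 4 outside the rule. Some genes under runs are counted but not reported here by name. No test was run, because the list holds no samples and its positions define the runs. Alternatives changed the gap, the minimum number of peaks, the narrowest and broadest peaks, the gene-end window and the overlap. Python 3.11.15, pandas 2.3.3, numpy 2.4.6, scipy 1.17.1 and matplotlib 3.10.9 were used.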

Additional observations from a re-analysis of the deposited data

How the results depend on the processing

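The counts followed the definition of a run closely. With a maximum gap of 1000 bp there were 26 runs, 145 members, 27 protein-coding genes under a run and 4 genes of the lists, and with 3000 bp there were 560, 3413, 602 and 92. The values as reported are 234, 1362, 241 and 48. With a minimum of 4 peaks they were 662, 3074, 624 and 94, and with a minimum of 8 they were 18, 173, 27 and 9. Leaving out peaks under 20 bp gave 213 runs, 1246 members and 224 genes, and leaving out the broadest 1% gave 193, 1095 and 194. The share of members at gene ends, 26.0%, was 29.7% with the 1000 bp gap, 23.7% without the broadest peaks, 40.6% with a 2500 bp window and 18% by the midpoint. Among other peaks it was 31.3% with the 2500 bp window and 20.3% by the midpoint, so the order of members and other peaks turned round by the midpoint. The median width of members, 782.5 bp, was 1209 bp with the 1000 bp gap, 952 bp with 8 peaks and 694 bp without the broadest peaks. The share of runs over a protein-coding gene was 96.2% with the 1000 bp gap and 100% with 8 peaks, against 86.8% as reported. Of 5 striatal transcription factors none was under a run with the 1000 bp gap or with 8 peaks, and 3 were without the broadest peaks, while 2 pan-neuronal genes were with the 3000 bp gap or with 4 peaks. Of 193 alternative counts for named genes and lists, 117 stayed within 1.5 times the reported count and 76 did not. The cause of these shifts was not tested beyond the definitions themselves. No paired analysis was possible because both libraries share 1 list without values per library, and neither library could be left out for the same reason.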

Other observations

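Some dense runs lay away from protein-coding genes. Of the 234 runs, 31 touched none, and 17 of these covered another gene type. Gm41980, a lncRNA gene on chromosome 1, had 2 runs of 5 that held 10 of its 11 peaks. Sox2ot, the lncRNA gene that contains Sox2, had 11 of its 18 peaks in runs, 5 in a run of its own and 6 in the run over Sox2. Fendrr, a lncRNA gene beside Foxf1, had 7 of its 9 peaks in 2 runs, and the 2 runs were 2477 bp apart. The shortest run of all, 5 peaks over 5277 bp on chromosome 1, touched no gene.

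A single run, on chromosome 12 over Crip2, Crip1 and Tedc1, consisted wholly of gene-end peaks. All 5 of its peaks fell within 1000 bp of a gene end. Along the runs, the median width was 772 bp for first and last peaks and 793.5 bp for inner peaks, and 25.6% and 26.2% of them lay at gene ends.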
